A study of Mus musculus with 2 samples.

Results

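The tumor cells described here were the 325 with the highest summed level of Enpp2, Cxcl15, Gas1, Edil3 and Bdkrb2, out of 3249 tumor cells in single-cell RNA sequencing of mouse orthotopic pancreatic tumors. They were selected on measured values: the UMIs (counted RNA molecules) of these 5 genes were added in each tumor cell and divided by its total, giving a score per 1000000 UMIs, and the top 10% of tumor cells of both libraries together were kept. A tumor cell was a barcode with at least 3000 UMIs, 200 to 5000 genes and at most 8% mitochondrial UMIs that held 2 or more UMIs of the keratins Krt8 and Krt18, none of Ptprc (CD45, leukocytes) or Pecam1 (endothelium), at most 1 of Dcn and Lum (fibroblasts), and under 0.2% of its UMIs from the macrophage genes Lyz2, C1qa, C1qb and C1qc. Of 11249 barcodes within the limits on UMIs, genes and mitochondrial share, 4963 in FLOX and 6286 in MCT1-KO, the tumor cell rule kept 1023 and 2226. The high-score cells numbered 104 in FLOX and 221 in MCT1-KO, and the 919 and 2005 remaining tumor cells served as the comparison.

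KPC cells, a mouse pancreatic cancer line, were injected into the pancreas of male mice after injections of tamoxifen or corn oil. The dissociated tumors, taken 2 to 3 weeks later, were sequenced without a sort. The methods name C57BL/6 mice aged 8 weeks, and give no separate strain or age for the transgenic hosts. The host of the library labelled MCT1-KO was Col1a2-CreERT2 MCT1-/-, in which tamoxifen removes the lactate transporter MCT1 (Slc16a1) from cells with an active Col1a2 promoter, such as pancreatic stellate cells and fibroblasts, and the host of the FLOX library was MCT1 fl/fl, for which the sources used here leave unclear whether tamoxifen or its corn oil carrier was given. The injected tumor cells carry no Cre, so the gene was removed around them and not in them. There was 1 library for each genotype, and the sources used here do not say whether a library was 1 mouse or a pool.

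Enpp2 encodes autotaxin, the secreted enzyme that makes the signalling lipid lysophosphatidic acid from lysophosphatidylcholine, and in the pancreas autotaxin has been studied mainly as a product of tumor and stromal cells. Gas1 is a membrane-anchored hedgehog co-receptor that was first found as a gene switched on in growth-arrested fibroblasts. Cxcl15 (lungkine) is a chemokine of the neutrophil-attracting ELR class, Edil3 is a secreted integrin-binding matrix protein, and Bdkrb2 is the bradykinin B2 receptor.

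The 5 genes lie on 4 chromosomes. In GRCm38 (GENCODE vM21), Enpp2 (ENSMUSG00000022425) occupies chr15:54838901-54952892 on the minus strand, Cxcl15 (ENSMUSG00000029375) chr5:90794534-90803067 on the plus strand and Bdkrb2 (ENSMUSG00000021070) chr12:105563226-105595237 on the plus strand. Gas1 (ENSMUSG00000052957), at chr13:60174405-60177365 on the minus strand, and Edil3 (ENSMUSG00000034488), at chr13:88821472-89323223 on the plus strand, share a chromosome but are far apart on it. RefSeq promoter sequence of GRCm38.p6 was at hand for 3 of the 5, and the 250 bases before each annotated start are shown because these genes choose the cells. Capitals mark the motif found, and the Bdkrb2 stretch, which held none of those searched, is all lower case. The stretches are chr5:90794284-90794533 for Cxcl15, chr13:60177536-60177785 for Gas1 (minus strand) and chr12:105562922-105563171 for Bdkrb2, all written 5′ to 3′ on the strand of the gene.
Cxcl15: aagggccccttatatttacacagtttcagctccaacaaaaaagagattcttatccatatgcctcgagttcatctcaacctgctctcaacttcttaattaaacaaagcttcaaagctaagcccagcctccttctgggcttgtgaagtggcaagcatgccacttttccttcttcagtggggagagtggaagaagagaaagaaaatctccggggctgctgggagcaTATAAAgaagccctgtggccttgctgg
Gas1: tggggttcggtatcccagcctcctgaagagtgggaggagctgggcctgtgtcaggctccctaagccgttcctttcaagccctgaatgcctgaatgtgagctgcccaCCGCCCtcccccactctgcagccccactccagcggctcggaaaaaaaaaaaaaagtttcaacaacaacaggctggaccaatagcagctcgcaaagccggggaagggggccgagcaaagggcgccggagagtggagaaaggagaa
Bdkrb2: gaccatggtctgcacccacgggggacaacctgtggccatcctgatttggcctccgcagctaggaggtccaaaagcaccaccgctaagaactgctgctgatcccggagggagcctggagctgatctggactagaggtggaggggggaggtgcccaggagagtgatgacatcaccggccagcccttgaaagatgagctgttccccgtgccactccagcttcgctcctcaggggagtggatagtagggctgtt

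The motifs searched on both strands were TATAAA (the TATA box), TGANTCA (AP-1), TGACGTCA (CRE), GGGCGG (GC box) and the letters CCACCC, and no match overlapped another. Cxcl15 held TATAAA, the letters of a TATA box, 27 bases before its start, and 12.4% of 32851 promoter stretches of this length held it too. Gas1 held a GC box 144 bases before its start, as did 32.7% of all promoters. AP-1, CRE and CCACCC letters, which stood in 6.75%, 1.55% and 28.1% of all promoters, were found in 0 of the 3 stretches. The GC content was 46.4% for Cxcl15, 58.8% for Gas1 and 60.8% for Bdkrb2. The sequences thus shared no motif among those searched.

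The score had no gap at the limit, so by the score the high-score cells are the upper end of a range. The score cannot tell whether they are a separate type by other genes, which was not tested. The lowest score kept was 4541.03 and the highest left out 4540.65, with 4541.58 and 4539.76 next to them. Within 10% of the limit lay 90 cells on the upper side and 105 on the lower side. The median score was 5520.58 in the high-score cells, whose highest cell reached 11246.9, and 1130.08 in the other tumor cells. A score of 0 was seen in 131 tumor cells, 4.03% of all, and the share of cells declined over the scores apart from small rises between neighbouring bins. The high-score cells made up 10.2% of the FLOX tumor cells (95% interval 8.38 to 12.2) and 9.93% of those in MCT1-KO (8.72 to 11.2), so the libraries held like shares. Shares carry exact binomial (Clopper-Pearson) intervals, levels exact Poisson intervals and ratios conditional exact intervals, all at 95% and all for counting error only.

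**Figure D1:**
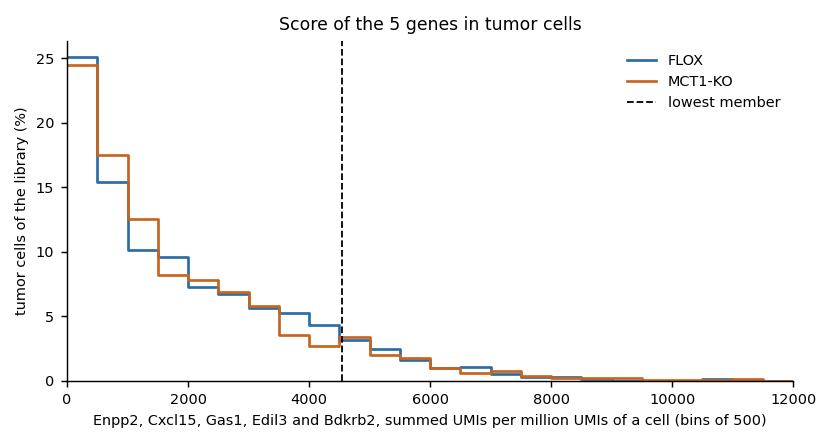
Distribution of the score, in UMIs of the 5 genes per 1000000 UMIs of a cell, over the tumor cells of FLOX and MCT1-KO, as the percent of each library's tumor cells in each bin, with the limit for the top 10% drawn as a line. There is no gap in the distribution at the limit of 4541.03, and the lowest bin holds 25.1% of the FLOX tumor cells.

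Enpp2 dominated the score. The level of Enpp2 (UMIs per 1000000 UMIs summed over the cells, CPM, used for all levels) was 4630 CPM (4529 to 4732) in the high-score cells of FLOX and 4645 CPM (4571 to 4720) in those of MCT1-KO, against 1239 and 1004 CPM in the other tumor cells. It supplied 80.0% of the score UMIs in FLOX and 78.9% in MCT1-KO, and was the highest of the 5 genes in 103 of 104 and 220 of 221 high-score cells. The cells are therefore first of all Enpp2-high cells, a description fixed by the rule.

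The other 4 genes were lower in level and differed in how many cells held them. Gas1 stood at 527 CPM in the high-score cells of FLOX and 597 CPM in MCT1-KO, against 283 and 241 CPM, and at least 1 UMI of it was found in 96.2% and 95.9% of these cells. Bdkrb2 stood at 369 and 453 CPM, against 144 and 166 CPM, with UMIs in 80.8% and 90.5%. These receptors were thus seen in most high-score cells of both libraries, but also in most other tumor cells. There Gas1 was found in 77.7% and 78.9% of cells and Bdkrb2 in 51.3% and 66.9%. Cxcl15 stood at 193 and 126 CPM, against 56.8 and 29.3 CPM, with UMIs in 73.1% and 51.6%. Edil3 was the sparsest, at 69.2 and 64.1 CPM against 31.0 and 16.9 CPM, with UMIs in 38.5% and 39.4%, so most high-score cells showed none of it at this depth. All 5 genes were seen in 30 high-score cells of FLOX (28.8%) and 48 of MCT1-KO (21.7%), against 6.20% and 4.19% of the other tumor cells.

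**Figure D2:**
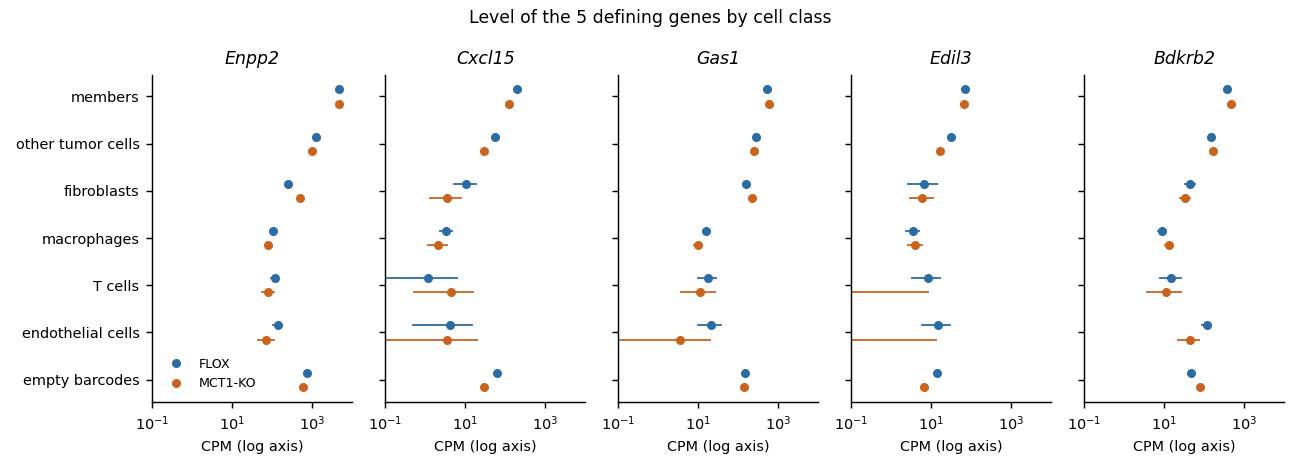
Levels of the 5 genes that choose the cells, in CPM on a log axis with 95% Poisson intervals, in high-score and other tumor cells of FLOX and MCT1-KO. Enpp2 lies far above the rest, at 4630 and 4645 CPM in the high-score cells, and Edil3 lowest, at 69.2 and 64.1 CPM.

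Since the rule used these genes, each was left out of the score in turn. The top 10% were chosen by the other 4, and the gene left out was measured. The genes of the rule were themselves chosen with earlier results of these data known. A higher level of the gene left out is therefore no independent sign that these genes go together. Cxcl15 was then 2.45-fold (2.12 to 2.82) higher in the chosen cells of FLOX and 3.29-fold (2.89 to 3.73) higher in MCT1-KO. Edil3 was 2.12-fold (1.71 to 2.61) and 3.34-fold (2.81 to 3.95) higher. For Bdkrb2 the ratios were 1.66 (1.497 to 1.84) and 2.19 (2.06 to 2.33), and for Gas1 1.66 (1.54 to 1.78) and 1.94 (1.83 to 2.05). These 4 rankings still leaned on Enpp2, and 89.2% to 97.8% of the cells they chose were high-score cells.

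Leaving out Enpp2 changed the cells. The top 10% by the other 4 genes shared 139 cells (42.8%) with the high-score cells, and in them Enpp2 was 1.81-fold (1.75 to 1.87) higher in FLOX and 2.29-fold (2.23 to 2.34) higher in MCT1-KO, below the 3.74-fold and 4.62-fold that its own use in the rule gives. The 5 genes also occurred together cell by cell once every tumor cell was thinned to 3000 UMIs, which gives all cells the same depth and leaves none out. Gas1 was found in 54.7% of the FLOX tumor cells with an Enpp2 UMI and 29.8% of those without, and in 52.9% and 29.6% in MCT1-KO. Bdkrb2 was found in 30.9% with Enpp2 and 11.5% without in FLOX, and in 39.6% and 18.2% in MCT1-KO. In each of the 10 pairs the second gene was seen more often with the first than without it in both libraries, by the smallest ratio for Cxcl15 and Gas1 in MCT1-KO, with Gas1 in 52.3% of cells with Cxcl15 and 46.8% of those without. Free RNA and the makeup of a cell were not separated in these shares. Because the genes were chosen with earlier results of these data known, the shares are no independent test of their occurring together.

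Enpp2 elsewhere in the tumor stood at 253 CPM in the 99 fibroblasts of FLOX and 501 CPM in the 201 of MCT1-KO, at 106 and 76.7 CPM in macrophages, 117 and 79.5 CPM in T cells and 138 and 71.6 CPM in endothelial cells. Gas1 was at 153 and 218 CPM in fibroblasts, where 53.5% and 62.2% of cells had a UMI, and at 15.4 and 10.1 CPM in macrophages. The value in MCT1-KO fibroblasts was near that of the other tumor cells of MCT1-KO. Bdkrb2 among the 4 classes was highest in endothelial cells, at 116 CPM in FLOX and 43.0 CPM (22.2 to 75.0) in MCT1-KO. The MCT1-KO interval overlapped that of fibroblasts, at 32.8 CPM (24.7 to 42.7), and the value lay below that of barcodes taken as empty, given below. Of all cells in these 4 classes, 4 fibroblasts of MCT1-KO passed the score limit.

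Free RNA held these genes too, and its part in the levels of the cells was not tested. Barcodes with 10 to 100 UMIs, taken as empty, held Enpp2 at 731 CPM in FLOX and 600 CPM in MCT1-KO, about the median of single other tumor cells (740 and 659 CPM), and Gas1 at 143 and 138 CPM. Cxcl15 stood there at 61.7 and 29.1 CPM, near the level of the other tumor cells (56.8 and 29.3 CPM). Bdkrb2 was at 46.0 and 79.7 CPM and Edil3 at 13.5 and 6.72 CPM. An Enpp2 UMI was found in 51.8% of the FLOX macrophages at a median of 6838 UMIs, against 100% of the high-score cells at 17928 and 89.6% of the other tumor cells at 15445. In MCT1-KO it was found in 34.5% of the macrophages at 5343, 100% of the high-score cells at 15243 and 90.8% of the other tumor cells at 16239. A UMI of Enpp2 alone therefore did not set the high-score cells apart from other tumor cells. The Enpp2 levels of the high-score cells were far above those of the other tumor cells and of empty barcodes.

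The high-score cells were of like depth to the rest and held a smaller share of ribosomal protein RNA. Their median UMI count was 17928 in FLOX and 15243 in MCT1-KO, against 15445 and 16239 in the other tumor cells, and they showed a median of 4474 and 4128 genes, against 3982 and 4095. The mitochondrial share was 3.73% and 3.97%, against 3.13% and 3.52%. Ribosomal protein genes took 19.1% and 19.98% of their UMIs, against 24.2% and 25.0%, so every other gene gains some CPM there. The nuclear RNAs Malat1 and Neat1, used as a sign of RNA quality, were together 1.54-fold and 1.80-fold higher. Counts of called genes with these RNAs out of the totals are given with the calls, and the part of Malat1 and Neat1 was not tested. No barcode of a high-score cell was shared between the libraries, 3 of all tumor cells were, and 754 cells in FLOX and 703 in MCT1-KO that met the tumor gene rule were left out for more than 5000 genes.

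The keratins that helped choose tumor cells were lower in the high-score cells than in the rest. Krt8 stood at 282.6 and 375.0 CPM against 484.7 and 594.5 CPM, 0.583 (0.531 to 0.639) and 0.631 (0.595 to 0.669) of the level, and Krt18 was at 0.778 and 0.831 of it. Empty barcodes held Krt8 at 455 and 547 CPM and Krt18 at 637 and 691 CPM, above the levels of the high-score cells. The part of free RNA in the keratin UMIs that the rule used was not tested. Epcam, a general epithelial marker, had 0 UMIs in the high-score cells of FLOX and 5 in those of MCT1-KO, in 3 cells. It was rare in the other tumor cells too, found in 26 of 919 and 44 of 2005 of them, at 9.56 and 9.42 CPM. Vim, the mesenchymal filament gene, was high and alike in both groups, at 2626 against 2783 CPM in FLOX (ratio 0.944) and 3319 against 3440 CPM in MCT1-KO (0.965). Of the epithelial list, Sox9, a ductal transcription factor gene, was found in 88.5% and 91.4% of the high-score cells, at 275 and 525 CPM, and the tight junction gene Tjp1 in 86.5% and 82.8%. Krt19, Krt7 and Msln of the same list were called lower, with values given below.

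Outside the 5 genes, 7036 genes with at least 200 UMIs in the tumor cells of each library were compared. A gene was called when it differed by at least 1.5-fold the same way in both libraries, with no p-value, since there was 1 library for each genotype and the cells were chosen on these data. By this measure 199 genes (2.83%) were higher in the high-score cells and 155 (2.2%) were lower. With mitochondrial and ribosomal protein genes left out of the totals, 120 were higher and 210 lower, so the split between the directions depended on the scale. When the cells were chosen without Enpp2 in the score, 88 of the 199 higher and 98 of the 155 lower genes were called again. The median ratio over all genes was 1.06 in FLOX and 1.08 in MCT1-KO.

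Some of the leading genes were seen in a part of the high-score cells and others in most of them. Fmo2, a flavin monooxygenase that oxidizes drugs and other amines, led with 50.8 CPM against 13.1 CPM in FLOX (3.88-fold, 2.97 to 5.05) and 165 against 47.2 CPM in MCT1-KO (3.49-fold, 3.15 to 3.86). Ahsg (fetuin-A), a plasma protein that binds calcium phosphate, followed at 77.9 against 22.6 CPM (3.45-fold, 2.79 to 4.24) and 153 against 44.5 CPM (3.44-fold, 3.10 to 3.82). UMIs of Fmo2 were seen in 25 of 104 and 116 of 221 high-score cells and those of Ahsg in 44 and 119, so neither marked all of them. Fetub (fetuin-B), whose gene at chr16:22918334-22939778 neighbours Ahsg at chr16:22891277-22899449, was 2.78-fold (2.38 to 3.25) and 2.61-fold (2.31 to 2.93) higher. Ecrg4, which encodes a secreted peptide precursor, was 2.98-fold (2.51 to 3.52) and 3.38-fold (3.06 to 3.73) higher.

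The complement gene C4b was found in 101 of 104 and 199 of 221 high-score cells, at 435 against 195 CPM in FLOX (2.23-fold) and 418 against 158 CPM in MCT1-KO (2.65-fold). Mgp, the matrix Gla protein that inhibits calcification, had the highest level among the leading genes, 1780 against 851 CPM (2.09-fold) and 2694 against 1377 CPM (1.96-fold). Ank, a transporter of pyrophosphate and ATP that likewise limits mineral formation, was 1.94-fold and 1.90-fold higher, in 103 and 216 cells. UMIs of Mgp were seen in 95.2% and 95.02% of the high-score cells and 75.6% and 84.5% of the others, those of Ank in 99.0% and 97.7% against 80.0% and 89.2%, and Mgp in empty barcodes stood at 908 and 1802 CPM, above the level of the other tumor cells. Sod3, the extracellular superoxide dismutase, was 2.22-fold and 2.17-fold higher. The phosphodiesterase Pde10a was 2.85-fold and 2.37-fold higher, the sodium pump subunit Atp1b1 2.27-fold and 2.16-fold, the scaffold gene Tanc1 2.23-fold and 2.23-fold and the predicted gene Gm5678 3.16-fold and 3.03-fold. When the 3 cells with the most UMIs of each gene were left out of each group, all 12 leading genes were still past 1.5-fold in both libraries, and the lowest ratio was that of Ank in FLOX, 1.83.

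**Figure D3:**
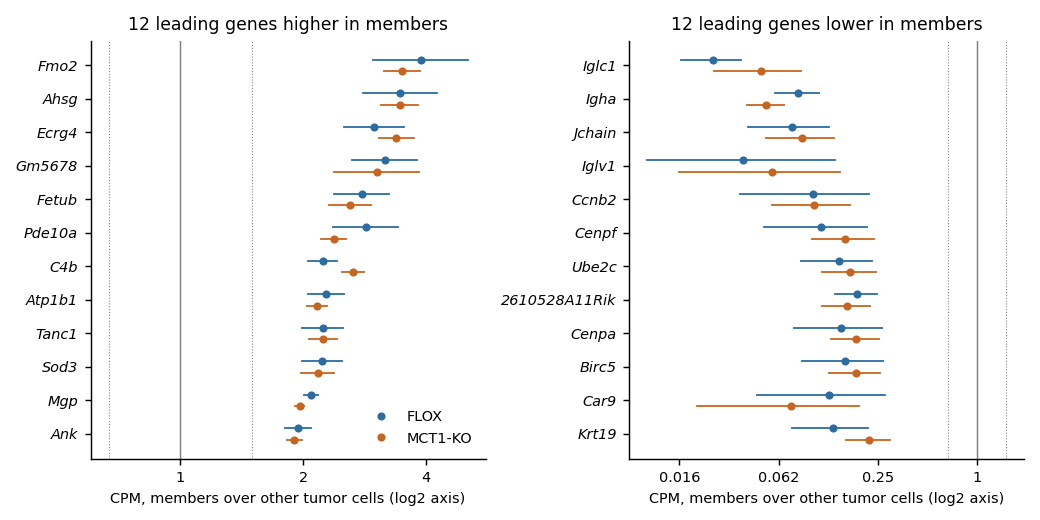
Ratio of CPM, high-score over other tumor cells, on a log axis with 95% intervals, for the 12 leading higher and 12 leading lower genes in FLOX and MCT1-KO. Fmo2 reaches 3.88 and 3.49, Ccnb2 lies at 0.1003 and 0.102, and the immunoglobulin genes Iglc1, Igha, Jchain and Iglv1 at the lower end rest on few cells.

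Of the 12 leading lower genes, 4 were plasma cell genes, and a few of the other tumor cells held most of the UMIs of the leading one. Iglc1, a light chain constant gene, stood at 14.4 against 580 CPM in FLOX and 3.72 against 76.2 CPM in MCT1-KO, but 96.7% and 94.1% of its UMIs among the other tumor cells lay in 1 cell. Without the 3 highest cells of each group the ratios were 0.891 and 0.692, with intervals that included 1. Igha was 0.708 and 0.399, and Jchain 0.290 and 0.582, under the same restriction. Iglv1 had 2 and 4 UMIs in the high-score cells, too few for this restriction to tell. Rule cells with RNA of other cell types (UMIs of Epcam, stomach, plasma cell, lymphocyte, acinar or islet genes above a set level) numbered 0 and 3 among the high-score cells and 27 and 60 among the others, and leaving them out gave 201 genes higher and 143 lower. Jchain was then at 1.25 (0.734 to 2.03) in MCT1-KO.

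The cell cycle made the most uniform group among the lower genes. Of the G2 and M phase list, all 11 measured genes were lower and the list as a whole was at 109 against 533 CPM in FLOX (0.205, 0.176 to 0.236) and 144 against 535 CPM in MCT1-KO (0.269, 0.245 to 0.295). Ccnb2 (cyclin B2) was at 3.46 against 34.5 CPM and 4.65 against 45.4 CPM, 0.1003 and 0.102 of the level in the other cells. Mki67, the Ki-67 gene, was at 0.281 and 0.220, and Top2a, topoisomerase II alpha, at 0.338 and 0.549. Among the leading lower genes Cenpf and Cenpa (centromere proteins), Ube2c (a ubiquitin enzyme of mitosis) and Birc5 (survivin) were at 0.113 to 0.183 of the others in both libraries. A further leading lower gene, 2610528A11Rik, which is in none of the cell cycle lists, was at 0.186 and 0.162.

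The S phase list moved the same way but less. Of its 8 measured genes, the helicase genes Mcm6, Mcm7 and Hells and the ribonucleotide reductase subunit Rrm2 were called lower and the list stood at 0.713 and 0.663. Ranking all tumor cells by the G2 and M list put 0 of 104 and 2 of 221 high-score cells into its top 10%, 0.615% of both together (0.0746 to 2.21), against 12.3% and 10.5% of the other tumor cells. At equal depth of 3000 UMIs, Mki67 or Top2a was seen in 9.62% (4.71 to 17.0) and 15.4% (10.9 to 20.8) of the high-score cells and 22.7% (20.1 to 25.6) and 21.7% (19.96 to 23.6) of the others. Unthinned the shares were 44.2% and 41.2% against 54.0% and 52.6%. Fewer high-score cells than other tumor cells thus ranked high for the G2 and M list in both libraries. Mki67 or Top2a at equal depth was also seen in a smaller share of them, with overlapping intervals in MCT1-KO. Some high-score cells still showed these 2 genes.

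The list of CDK inhibitors and growth arrest genes, into which Gas1 would fall by its name, was split. Its sum was 1.34-fold and 1.55-fold higher, and this came from Btg2, an antiproliferative gene, at 3125 against 2054 CPM in FLOX (1.52-fold) and 3154 against 1720 CPM in MCT1-KO (1.83-fold), which was 1.47-fold in FLOX without the 3 highest cells. Cdkn1a, which encodes the CDK inhibitor p21, was lower, at 62.3 against 152 CPM (0.409, 0.334 to 0.497) and 134 against 222 CPM (0.602, 0.545 to 0.663). Of 9 measured genes, 1 was called higher, 1 lower and 7 neither. Cdkn2a and Cdkn2b were at 0 in the high-score cells.

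**Figure D4:**
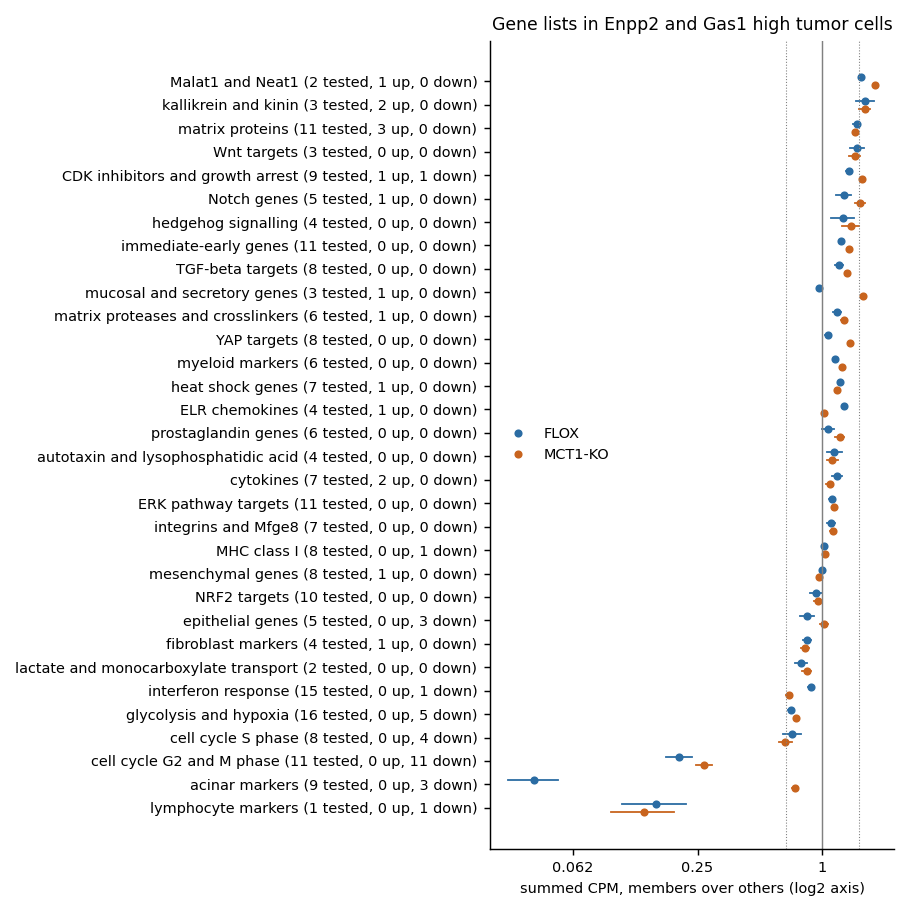
Summed level of each gene list in high-score over other tumor cells, as a ratio on a log axis with 95% counting intervals, in FLOX and MCT1-KO. The G2 and M list lies lowest among lists with tumor cell expression, at 0.205 and 0.269, and the kallikrein and kinin list is at 1.61 in both.

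The pathways of the 5 genes were looked at by role. For autotaxin, 4 of 13 genes that act on or receive lysophosphatidic acid could be compared and 0 were called, with a sum of 1.15-fold and 1.12-fold. The phospholipase Pla1a was at 179 against 153 CPM and 146 against 115 CPM, and the lipid phosphatase Plpp3 at 1.399-fold and 1.58-fold. The receptors were scarce, and Lpar3 and Lpar5 had no UMI in the high-score cells. For the hedgehog partner Gas1, 4 of 14 genes were measured and 0 called, with a sum of 1.26-fold and 1.37-fold. The receptor Ptch1 was at 1.51-fold and 1.47-fold and the co-receptor Cdon at 1.37-fold and 1.63-fold, each past 1.5-fold in 1 library only, while the ligands Shh, Ihh and Dhh were at 0.

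The kallikrein and kinin list had a sum of 1.61-fold (1.46 to 1.78) in FLOX and 1.61-fold (1.51 to 1.71) in MCT1-KO. Bdkrb1, the bradykinin B1 receptor, was at 168 against 98.3 CPM (1.71-fold, 1.504 to 1.95) and 235 against 135 CPM (1.73-fold, 1.60 to 1.87), while Bdkrb2, the B2 receptor, was among the genes that chose the cells. Ece1, an endothelin-converting peptidase that also degrades bradykinin, was 1.59-fold and 1.59-fold higher, and Ace, which inactivates bradykinin, was 1.47-fold and 1.37-fold and not called. With the 3 highest cells left out, Ece1 dropped to 1.43-fold in FLOX. For the integrin ligand Edil3, 0 of 7 measured genes of the integrin list were called, with a sum of 1.101-fold and 1.12-fold, and the related Mfge8 was at 1.18-fold and 1.17-fold.

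Among the ELR chemokines, the group of Cxcl15, Cxcl5 was the one called of 4 measured genes, at 455 against 244 CPM in FLOX (1.87-fold, 1.73 to 2.02) and 620 against 355 CPM in MCT1-KO (1.75-fold, 1.67 to 1.83). It was present in 90.4% and 96.8% of the high-score cells. Cxcl1 and Cxcl2 were near 1 and on opposite sides of it in the libraries, at 1.096 and 0.919 and at 1.22 and 0.918, and the list sum was at 1.27 and 1.02, the latter at 0.959 without mitochondrial and ribosomal protein genes in the totals. With Enpp2 left out of the score the list turned to 0.891 and 0.504. Of the 7 measured cytokines, whose sum was at 1.18 and 1.09, the latter at 0.834 without Enpp2 in the score and 0.947 with the top 5%, Il6 and Il1rn were called, Il6 at 1.82-fold and 2.02-fold and Il1rn at 1.81-fold and 1.56-fold. In FLOX 1 cell held many of the Il6 UMIs, and without the 3 highest cells the ratio there was 0.890 (0.657 to 1.18) and in MCT1-KO 1.41. Il1rn was likewise under 1.5-fold in both libraries without them, at 1.38 and 1.46.

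Matrix genes were higher as a group. The matrix protein list was 1.47-fold (1.42 to 1.52) and 1.44-fold (1.405 to 1.48) higher, all 11 measured genes had ratios over 1 in both libraries, and 3 were called. Thbs1 (thrombospondin 1) was at 567 against 320 CPM (1.77-fold) and 607 against 349 CPM (1.74-fold). Col4a1, a basement membrane collagen, was 1.57-fold and 1.80-fold higher and Col1a1, fibrillar collagen, 1.62-fold and 1.70-fold. Without the 3 highest cells of each group both collagens were under 1.5-fold in FLOX. Adamts1, a protease of matrix proteoglycans, was 1.69-fold and 2.58-fold higher, the single call among 6 measured matrix proteases and crosslinkers, whose sum was at 1.18 and 1.27. Tnc (tenascin C), at 1.66-fold and 1.55-fold, was the single call among 8 measured mesenchymal genes, whose sum was at 0.998 and 0.963, and without the 3 highest cells it was at 1.38 and 1.46, under the limit in both libraries.

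Fibroblast markers were split. The list sum was at 0.845 and 0.827, set by its most abundant gene Acta2 (smooth muscle actin), at 0.668 and 0.634, while 2 of 4 measured genes had ratios over 1 in each library and the median ratio was 1.14 and 1.12. Fap had no UMI in the high-score cells. The single called gene in that list was C3, a complement gene that many cell types make, at 324 against 193 CPM (1.68-fold) and 214 against 108 CPM (1.99-fold). Cp (ceruloplasmin), a copper-carrying plasma protein, was the highest of the mucosal and secretory list (0.970 and 1.58 in sum, the former 1.05 as a mean of single-cell CPM), at 2803 against 1762 CPM (1.59-fold) and 2805 against 1643 CPM (1.71-fold), and was found in every high-score cell. Myeloid markers were at 1.16 and 1.25 in sum with 0 of 6 measured genes called, but 1 of the 6 in FLOX and 3 in MCT1-KO had ratios over 1, and most of the sum was Cd74, an MHC class II chaperone gene, at 1.24 and 1.21. Lymphocyte markers were at 0.157 and 0.138, both set by Jchain, and without the 3 highest cells the sums stood at 16.7 against 34.5 CPM and 8.48 against 15.9 CPM. Endothelial markers stood at 10.4 and 10.5 CPM in sum in the high-score cells, and acinar markers at 0.0406 and 0.737 of the others, where 1 cell held 63.5% of the acinar UMIs in FLOX. Without the cells holding RNA of other cell types the acinar list remained under 1 in FLOX and turned to 1.16 (1.11 to 1.21) in MCT1-KO. Mesothelial and islet markers stood at 1.73 and 0.620 CPM and at 0.577 and 3.41 CPM in the high-score cells, with 0 genes measured well enough to compare.

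Of the 5 measured genes of the epithelial list, 3 were called lower, while the sum was at 0.843 and 1.02. Krt19 was at 9.23 against 69.4 CPM in FLOX (0.133, 0.0757 to 0.217) and 13.9 against 63.4 CPM in MCT1-KO (0.220, 0.160 to 0.296), and Krt7 at 0.433 and 0.430. Msln (mesothelin), a surface protein common in pancreatic cancer, was at 0.447 and 0.340. The transcription factor gene Sox9 was not among them, at 1.15-fold and 1.28-fold. Ranking tumor cells by Msln and Krt19 together put 4 of 325 high-score cells (1.23%, 0.336 to 3.12) into the top 10%, against 11.0% of the other tumor cells.

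Glycolysis and hypoxia genes were lower in sum, at 0.704 (0.686 to 0.723) and 0.748 (0.733 to 0.762), with 5 of 16 measured genes called. Car9, carbonic anhydrase 9, a gene that low oxygen switches on, was at 3.46 against 27.5 CPM (0.126) and 1.24 against 16.8 CPM (0.0740). The glycolytic enzyme genes Pgk1 (0.486 and 0.510), Eno1 (0.547 and 0.560) and Gapdh (0.575 and 0.587) were lower too, and Ldha, which makes lactate, was at 0.698 and 0.729 and not called. Slc16a1, the gene removed from the host stroma, was at 27.7 against 34.3 CPM in FLOX (0.806, 0.586 to 1.09) and 39.7 against 46.2 CPM in MCT1-KO (0.858, 0.711 to 1.03), intervals that include 1. The MCT1 accessory chain Bsg was at 0.794 and 0.838, and the list of lactate and monocarboxylate transport at 0.790 and 0.840 with 0 of 2 called.

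The remaining lists had few called genes. Immediate-early genes were 1.23-fold and 1.35-fold in sum with 0 of 11 called, ERK pathway targets 1.11-fold and 1.13-fold with 0 of 11, TGF-beta targets 1.21-fold and 1.32-fold with 0 of 8, and YAP targets 1.07-fold and 1.36-fold with 0 of 8. Wnt targets stood at 1.47-fold and 1.44-fold with 0 of 3 called, among them Lgr5, the stem cell receptor gene, at 1.62-fold and 1.47-fold. Of the 5 measured Notch genes, whose sum was at 1.27 and 1.52, the ligand gene Jag1 was called, at 1.72-fold and 1.94-fold, but without the 3 highest cells it was at 1.405 (0.932 to 2.06) in FLOX. Heat shock genes were 1.22-fold and 1.18-fold with Hsph1 called, which was at 1.36 in FLOX without the 3 highest cells, and NRF2 targets at 0.935 and 0.952 and prostaglandin genes at 1.06 and 1.22 had 0 called. MHC class I genes were near 1, at 1.02 and 1.04 (0.967 and 0.973 without mitochondrial and ribosomal protein genes in the totals), and the one called was the peptide transporter Tap1 at 0.628 and 0.611. The interferon list was at 0.878 and 0.690 and the ubiquitin-like gene Isg15 was its single called gene, at 0.637 and 0.343, but as means of single-cell CPM the list was at 1.07 and Isg15 at 1.09 in FLOX. Over the 35 lists, 222 genes were tested, of which 16 were called higher and 30 lower, against the background of 2.83% and 2.2%.

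The same genes were followed over 10 groups of tumor cells of rising score, the tenth being the high-score cells. The G2 and M list went from 1203 CPM in the lowest group through 776 CPM in the fifth to 109 CPM in FLOX, and from 789 through 514 to 144 CPM in MCT1-KO. Glycolysis and hypoxia genes went from 7136 through 4963 to 3611 CPM and from 6222 through 4410 to 3435 CPM. The G2 and M list did not fall steadily, with the fifth group of FLOX above the third and the fourth (575 and 551 CPM) and the fourth group of MCT1-KO (799 CPM) the highest of that library. Fmo2 went from 9.81 through 24.3 to 165 CPM in MCT1-KO, and in FLOX it was at 9.36, 3.14 and 50.8 CPM. Immediate-early genes went the other way, from 9603 to 19409 CPM in FLOX and from 7439 to 14289 CPM in MCT1-KO. The lowest FLOX groups were also shallower, with a median of 7813 UMIs in the first.

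**Figure D5:**
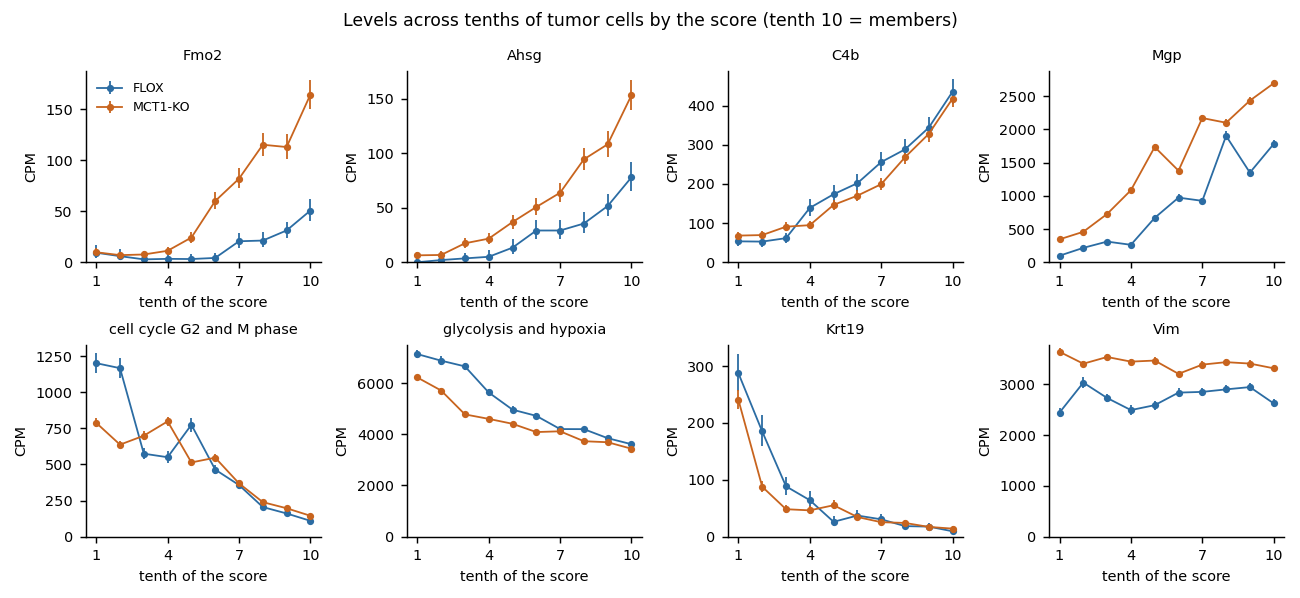
Levels in CPM over 10 groups of tumor cells ordered by the score, from lowest to highest, in FLOX and MCT1-KO. The G2 and M list declines from 1203 to 109 CPM in FLOX and from 789 to 144 CPM in MCT1-KO, and Fmo2 is highest in the last group, at 50.8 and 165 CPM.

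The high-score cells of the 2 libraries were then set side by side, the comparison of hosts with and without MCT1 in Col1a2-expressing cells. Slc16a1, the targeted gene, in fibroblasts was at 26.2 CPM (17.4 to 37.8) in FLOX and 34.6 CPM (26.3 to 44.7) in the library labelled MCT1-KO, with overlapping intervals. These counts come from the 3′ end, and the sources used here do not say whether the deleted part reaches it, so they do not check the labels. In the high-score cells Slc16a1 was at 27.7 and 39.7 CPM. Empty barcodes held it at 21.4 CPM in FLOX and 21.0 CPM in MCT1-KO, and the part of free RNA in these counts was not tested. All differences below are between 2 libraries and have no replicate.

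Among 6050 genes with at least 100 UMIs in the high-score cells, 337 (5.57%) were at least 1.5-fold higher in the MCT1-KO library and 250 (4.13%) at least 1.5-fold lower, around a median ratio of 1.04. Of these, 93 and 126 were past 1.5-fold the same way in the other tumor cells as well. Thinning cells to 3000 UMIs also changed which cells were chosen, 233 of the 325 being shared, and left 1577 genes to compare. Of these 117 were higher and 81 lower, and of the 337 and 250 genes, 65 and 66 were still compared and 47 and 50 called again. The 5 genes of the score chose the cells at a common limit, which bears on all their values here. Enpp2 was at 1.00 (0.976 to 1.03) between the libraries, Cxcl15 at 0.655 (0.565 to 0.759), Gas1 at 1.13 (1.05 to 1.23), Edil3 at 0.927 (0.737 to 1.17) and Bdkrb2 at 1.23 (1.12 to 1.35). In the other tumor cells Gas1 went the opposite way, at 0.850, with Enpp2 at 0.811, Cxcl15 at 0.515, Edil3 at 0.544 and Bdkrb2 at 1.15.

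The 6 leading higher genes were all of pancreatic acinar cells: 2210010C04Rik, Try5, Try4, Prss2 and Ctrb1, which encode digestive proteases of the trypsin and chymotrypsin kind, and the elastase gene Cela3b. Ctrb1 was at 11.0 CPM in FLOX and 315 CPM in MCT1-KO, and the acinar list as a whole at 31.7 and 1047 CPM. The list ratio was 33.0 in the high-score cells and 1.82 in the other tumor cells, where 3 FLOX cells held most of the acinar UMIs of that library. Without the 3 highest cells of each library, the other tumor cells stood at 92.5 CPM in FLOX and 1193 CPM in MCT1-KO. In empty barcodes the same list was at 342 and 17539 CPM, and its part in the difference was not tested. All 10 measured acinar genes were called higher.

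The 6 leading lower genes were of heat shock and interferon response. Hsph1, a chaperone gene, was at 463 CPM in FLOX and 74.7 CPM in MCT1-KO (0.161, 0.139 to 0.186), against 0.0879 in the other tumor cells. Dnajb1, Hspe1 and Hspa1b were at 0.239, 0.245 and 0.213, and all 7 measured heat shock genes were called lower, with a list ratio of 0.389 in the high-score cells and 0.405 in the others. Ifit1, an interferon-induced gene, was at 0.142 and Cxcl10, an interferon-induced chemokine, at 0.267. Of 11 measured interferon genes 9 were called lower, with a list ratio of 0.451 (0.431 to 0.473) in the high-score cells and 0.574 (0.566 to 0.582) in the other tumor cells. MHC class I genes stood at 0.710 and 0.696. These lists thus differed between the libraries in the other tumor cells as well. Empty barcodes shifted the same way, with the heat shock list at 5541 CPM in FLOX and 2528 CPM in MCT1-KO and the interferon list at 2202 and 1366 CPM, and their part in the difference was not tested. Cells in the top 10% of the interferon list made up 19.2% (12.2 to 28.1) of the high-score cells in FLOX and 2.71% (1.00 to 5.82) in MCT1-KO, against 15.9% and 7.63% of the others.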

How the data were processed

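Dissociated tumors were profiled in 1 FLOX and 1 MCT1-KO library by droplet or microwell 3′ single-cell sequencing: the labels name the SeekOne MM microwell kit, while the methods name 10x Chromium or SeekOne DD. The deposited files hold raw UMI counts per gene and barcode, which the authors obtained by trimming reads with Fastp and counting with SeekOneTools, without a barcode filter or normalization. The submitters' processing notes name GRCh38, a human build, and Seurat 4.0.0, but the 32285 features are mouse genes, which leaves the genome actually used for counting unknown, and positions given here are those of GENCODE vM21 (GRCm38) by gene identifier. The files held 177334432 UMIs on 1437105 barcodes in FLOX and 151118092 on 1433633 in MCT1-KO.

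Cells were chosen and scored as stated with the results, in Python 3.11.15 with numpy 2.4.6, scipy 1.17.1, pandas 2.3.3, scikit-learn 1.9.0 and matplotlib 3.10.9. UMIs were summed over cells, divided by the total and given as counts per 1000000 UMIs (CPM). With 1 library per genotype and cells chosen on these data, no p-value was computed; intervals and limits cover counting error only, since cells of 1 library are not replicates. The rules and gene lists, 35 in all, were chosen with earlier results of these data known. Named genes are the 5 defining genes, up to 4 of each list with the highest level in tumor cells plus any of the list past 1.5-fold, the 12 in each direction whose interval lay farthest from 1 in the library where it was nearer, the 6 in each direction between libraries, the rule's keratins and Slc16a1. List genes at 0 and genes named beyond this rule were picked after their values were seen. The method was run on simulated counts with genes changed by known folds, drawn with counting error only and without choosing cells on them. That run therefore does not bear on genes concentrated in few cells or on the choice of the cells. Doublets were not removed; an alternative left out the 562 and 602 barcodes with the highest simulated-doublet score, 8% of 7023 and 7517 barcodes. Classes set beside tumor cells were fibroblasts (5 or more UMIs of Dcn and Lum), macrophages (1% or more Lyz2 and C1q UMIs), T cells and endothelial cells (2 or more UMIs of their markers). Each alternative changed 1 setting, which in some also changed the cells chosen or the genes compared.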

Additional observations from a re-analysis of the deposited data

Results flagged for a closer look

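For 5 of the named genes, high-score and other tumor cells differed in opposite directions in the libraries, with counting intervals on opposite sides of 1. The difference between the libraries was not tested, and 26 of the 7036 genes compared behaved in this way. Cxcl1 was at 1.1-fold (1.01 to 1.19) in FLOX and 0.919-fold (0.865 to 0.976) in MCT1-KO. Cxcl2, also a neutrophil-attracting chemokine, was at 1.22-fold (1.19 to 1.26) and 0.918-fold (0.896 to 0.941). The mitochondrial chaperone gene Hspe1 was at 1.1-fold (1.05 to 1.15) and 0.846-fold (0.787 to 0.908).

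The calprotectin genes S100a8 and S100a9, which neutrophils express most, gave the widest split. S100a8 was at 0.446-fold (0.324 to 0.601) in FLOX and 3.66-fold (3.21 to 4.17) in MCT1-KO, and S100a9 at 0.417-fold (0.299 to 0.567) and 3.71-fold (3.17 to 4.33). In the MCT1-KO high-score cells, 288 of the 324 S100a8 UMIs and 196 of the 229 S100a9 UMIs lay in 3 cells. Without the 3 highest cells of each group, S100a8 was at 11.3 CPM in the high-score cells and 20.9 CPM in the others, and S100a9 at 10.4 and 14.8 CPM, so the higher values in MCT1-KO rest on those cells.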

How the results depend on the processing

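No paired analysis was possible because each genotype had 1 library and the labels give no replicate number. The high-score share was 4.79% in FLOX and 5.12% in MCT1-KO with the top 5% of tumor cells, 22.2% and 19.0% with the top 20%, and 12.2% in FLOX with the top 10% taken within 10 groups by total UMIs. The count of genes higher in the high-score cells was 312 with the top 5%, 354 with means of single-cell CPM and 120 without mitochondrial and ribosomal protein genes. The counts higher and lower were 439 and 463 of 9467 genes with no upper gene limit (4.64% and 4.89%), and 15 and 59 at 2-fold. At a minimum of 50 UMIs they were 353 and 346 of 10264 (3.44% and 3.37%). At 1000 UMIs they were 71 and 51 of 2222 (3.20% and 2.30%), against 2.83% and 2.20% of 7036 in the main comparison. Among alternatives chosen after seeing the data, they were 78 and 43 in tumor cells at or below the median cell cycle level. They were 99 and 262 with the 3 highest cells of each gene left out, a setting also chosen after seeing the data. In the cells of low cell cycle level fewer genes were compared, 5121, and 1.52% and 0.840% were called. Of the 199 higher and 155 lower genes, 154 and 78 were still compared there, and 70 and 32 were called again. Of the 199 higher genes, 88 were also called with Enpp2 left out of the score, and 98 of the 155 lower genes, so that result leans on Enpp2.

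The G2 and M list in FLOX and MCT1-KO stayed lower in every alternative run on it, at 0.365 and 0.314 with the score on thinned cells, 0.242 and 0.307 within 10 groups by UMIs, 0.106 and 0.153 with no upper gene limit and 0.255 and 0.311 without Enpp2. It was at 0.296 in MCT1-KO with the top 20% and 0.162 in FLOX with means of single-cell CPM. Enpp2 left out of the score was at 1.96 and 2.17 within 10 groups by UMIs, 1.72 and 2.42 with no Dcn or Lum UMI allowed, 2.14 and 2.14 on thinned cells, and 2.35 in MCT1-KO without doublets. In FLOX, Cxcl15 was at 1.79 and Edil3 at 1.69 with no Dcn or Lum UMI, and on thinned cells Cxcl15 was at 3.06, Gas1 at 1.91 and Bdkrb2 at 2.33. Between the libraries, 117 genes were higher and 81 lower in MCT1-KO on thinned cells, where fewer genes, 1577, were compared. The cause of the other changes was not tested.

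Some directions reversed, among them those of genes that lay far from 1. ELR chemokines in MCT1-KO were at 0.929 with the top 5%, 0.975 within 10 groups by UMIs, 0.959 without mitochondrial and ribosomal protein genes, 0.963 without Cxcl15 and 0.504 without Enpp2, where FLOX was at 0.891. In MCT1-KO, cytokines were at 0.947 with the top 5% and 0.834 without Enpp2, ERK pathway targets at 0.977 and Ankrd37 at 1.05 without Enpp2, NRF2 targets at 1.00 with the top 20%, and MHC class I at 0.973 without mitochondrial and ribosomal protein genes. In FLOX, the mucosal and secretory list was at 1.31 with no upper gene limit, 1.05 with means of single-cell CPM, where Isg15 was at 1.09 and the interferon list at 1.07, and 1.30 without cells holding RNA of other cell types. Without those cells Ctrb1 was at 1.16 in FLOX, and in MCT1-KO Jchain was at 1.25, Ctrb1 at 1.06, Try5 at 1.24, Cpa1 at 1.05 and the acinar list at 1.16. Il6 in FLOX was at 0.890 without its 3 highest cells. Depth limits sparse genes such as Edil3 and the members with few UMIs, and 1 library for each genotype leaves every difference between genotypes without a replicate.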

Other observations

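The genes outside the lists given here were chosen after their values were seen, by no fixed rule and not as the furthest from 1, and other genes with like roles are not shown. Among genes higher in the high-score cells, the complement protease gene C1s1 was 1.62-fold and 1.82-fold higher in FLOX and MCT1-KO. F5, coagulation factor V, was 1.90-fold and 2.60-fold higher, Pros1, its anticoagulant counterpart protein S, 1.99-fold and 2.47-fold, and Lbp, the lipopolysaccharide-binding protein, 1.71-fold and 2.38-fold. Stat3, a transcription factor that cytokines of the Il6 family activate, was 1.55-fold and 1.69-fold higher, and Osmr, the oncostatin M receptor, 1.61-fold and 1.65-fold. Fmo1, a relative of the leading gene Fmo2, was 1.78-fold and 2.36-fold higher. The transcription factor genes Osr2 and Trp63 were 2.04-fold and 3.06-fold and 2.23-fold and 2.14-fold higher, and the ferritin receptor gene Scara5 2.21-fold and 2.55-fold.

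Among lower genes chosen in the same way, Idi1, an isomerase of the isoprenoid pathway, was at 0.177 and 0.335 of the other tumor cells, Hmgcs1, an early enzyme of cholesterol synthesis, at 0.323 and 0.466, and Insig1, which restrains sterol synthesis, at 0.299 and 0.503. Fdps, farnesyl diphosphate synthase, was at 0.518 and 0.365 and Sqle, squalene epoxidase, at 0.622 and 0.536. Psat1, an enzyme of serine synthesis, was at 0.498 and 0.262, and Asns, asparagine synthetase, at 0.330 and 0.544. The cytokine gene Mif was at 0.368 and 0.405 and the Wnt ligand gene Wnt7b at 0.343 and 0.238.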
